A study of Mus musculus with 15 samples.

Results

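Mouse embryonic stem cells kept for 48 hours in 10 nM oligomycin were compared with mock-treated cells by RNA sequencing. The comparison holds 6 of the 15 samples of the series, 3 per group, chosen by their labels. It covers 13284 of the 32152 genes in the table, those that reached 1 FPKM in at least 3 of the 15 samples. FPKM (fragments per kilobase of exon, scaled to the mapped total) is a level per length of transcript. All cells were of the C57BL/6 strain, and all groups shared a knockout DMEM medium with fetal bovine serum, glutamine, pyruvate, nonessential amino acids, β-mercaptoethanol and leukemia inhibitory factor (LIF), the cytokine that holds mouse embryonic stem cells in self-renewal. The labels name no feeder layer, no cell line and no time for the mock treatment. The other groups drawn on below received 1 nM oligomycin or, at 10 mM, 2-deoxy-D-glucose (abbreviated 2-DG), a sugar that is taken up like glucose and jams glycolysis, also for 48 hours, with 3 samples each. Nothing in the labels says that the 3 samples of a group were separate cultures, so the p-values may reflect no more than technical spread.

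Oligomycin binds the membrane part of the mitochondrial ATP synthase and stops protons from passing through it, so that ATP is no longer made by respiration and electron transport slows. Cells with a blocked ATP synthase are known to draw on glycolysis and to switch on the integrated stress response, in which phosphorylation of the initiation factor eIF2α favours translation of the transcription factor ATF4 and of its partner CHOP. Mouse embryonic stem cells rest on a network of transcription factors around Oct4, Sox2 and Nanog, divide fast with a short G1 phase, and keep promoters of lineage genes under Polycomb proteins.

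By the steps between low FPKM values, the control libraries held about 18500000, 17900000 and 17400000 reads and the 10 nM libraries about 18600000, 18600000 and 18700000 reads. Between 12190 and 12499 genes reached 1 FPKM in each of these 6 libraries. The core stem cell genes were present in every control, with Pou5f1 at 109, 126 and 132 FPKM, Sox2 at 162, 176 and 176 FPKM, Nanog at 191, 197 and 201 FPKM and Zfp42 (Rex1) at 24.1, 23.3 and 23.1 FPKM. Fibroblast markers were present in the controls too: the 22 in the table summed to 1955 to 2069 FPKM there and to 5256 to 6053 FPKM at 10 nM, none of them was at 0 in all 6 samples, and only S100a4 and Dpt stayed under the 1 FPKM filter. Of the 23 macrophage markers, 20 passed the filter, and the sum of the 23 was 790.1 to 803 FPKM in the controls and 779.8 to 959 FPKM at 10 nM. Most of this sum came from Spp1 alone, whose levels are given below, and Ptprc (CD45) and Itgam were under the filter. The sum is therefore no measure of macrophage content. Genes of 2-cell-like cells were at or near 0, with sums of 0.915 to 1.63 FPKM over 14 genes in the controls. Most belong to families of similar genes, such as Zscan4 and Usp17l. How reads of such copies were assigned is not stated, so these low levels are uncertain. Replicate 1 at 10 nM stood apart from its group: its deviations from the group mean had a root mean square of 0.181 on the log2 scale, against 0.145 and 0.118 for replicates 2 and 3 and 0.109 to 0.132 in the controls. Those deviations followed exon length with a rank correlation of 0.52 across 13275 genes, against -0.46 and -0.38 in replicates 2 and 3, which is a description across genes that are not independent replicates. Results that changed without this library are given both ways below.

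At 10 nM, 75.8% of the 13284 genes differed from the controls at an adjusted p below 0.05, and "rose" and "fell" below stand for that call. The rises numbered 4523, or 34.0% of all genes, and the falls 5544, or 41.7%. This balance depends on the scaling: median-ratio scaling gave 5058 rises and 5009 falls, and quantile scaling 5080 and 4993. Differences are given in log2 of FPKM + 1 with their standard error (SE), from limma with Benjamini-Hochberg adjustment over all genes, and understate the change of genes near 1 FPKM. The median over all genes was -0.076, and this value stands beside the medians of the gene groups below. The median was -0.0028 under median-ratio and -0.0016 under quantile scaling. A 2-fold difference or more was reached by 813 genes upwards (6.12%) and 1200 downwards (9.03%), or by 988 and 982 under median-ratio and 1002 and 970 under quantile scaling, and a 4-fold difference by 15 and 84. For 9936 genes, or 74.8%, the 3 treated samples lay wholly outside the range of the 3 controls. With so many genes called, a share of members near 34.0% or 41.7% is no result about a gene group, and neither is a small excess of falls over rises.

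**Figure D1:**
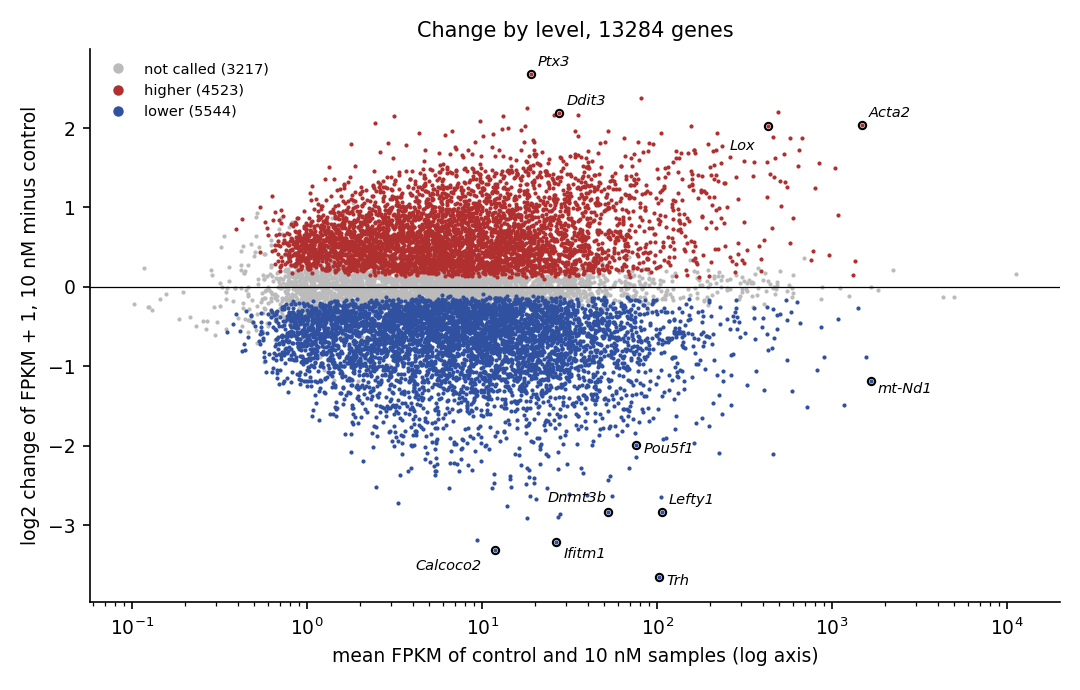
Log2 difference of FPKM + 1 between 10 nM oligomycin and control (vertical axis) against the mean FPKM over the 6 samples (log axis) for 13284 genes, coloured by call. The 4523 genes that rose and the 5544 that fell lie over the whole range of levels, and the falls reach further from 0 than the rises.

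The 15 genes with the largest rises, among those with a mean of at least 5 FPKM and the same direction in all samples, were led by Ptx3, which encodes the secreted pattern recognition protein pentraxin 3 (ENSMUSG00000027832, chromosome 3, 66219910 to 66225805). Its level was 4.36, 3.9 and 4.9 FPKM in the controls and 28.4, 36.1 and 36.1 FPKM at 10 nM. All 3 treated samples lay above the controls, replicate 1 being the lowest of them, with a log2 difference of 2.68 ± 0.10 (adjusted p = 1.6e-11). Ddit3, which encodes CHOP, went from 9.14, 9.11 and 9.24 FPKM to 39.2, 50.9 and 47.1 FPKM, and its groups did not overlap. Others among the 15 were Tgfb3, a TGF-β ligand (log2 difference 2.17), Adm, the vasodilator adrenomedullin (2.17), Acta2, smooth muscle α-actin (2.03), Lox, lysyl oxidase (2.03), Csf1, the macrophage growth factor (2.03), and Prrx2, a mesenchymal homeobox factor (2.00). The 15 also held Jph2, a junctophilin of muscle (2.25), Acot2, a mitochondrial acyl-CoA thioesterase (2.15), Slc1a6, a glutamate transporter (2.09), Lmod1, a leiomodin of smooth muscle (1.99), Htra1, a secreted serine protease (1.97), and Crim1, a membrane protein that binds BMPs (1.96).

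The largest fall was that of Trh, which encodes thyrotropin-releasing hormone (ENSMUSG00000005892, chromosome 6, 92242061 to 92244650). The controls held 173, 192 and 207 FPKM and the treated samples 12.1, 16.3 and 14.4 FPKM, so that the highest treated sample lay far under the lowest control, at a log2 difference of -3.66 ± 0.086 (adjusted p = 8.2e-13). Calcoco2, the autophagy receptor NDP52, fell from 20.1, 23.5 and 23.2 FPKM to 1.06, 1.49 and 1.45 FPKM, and Ifitm1, an interferon-induced membrane protein also found in early germ cells, from 46.5, 47.5 and 52.1 FPKM to 3.25, 4.91 and 5.12 FPKM. Both were far below the controls in all 3 samples, with log2 differences of -3.32 and -3.21; Ifitm1 belongs to a family of similar genes, and how reads of such copies were assigned is not stated. Next came the LIF target kinase Pim2 (-2.91), the imprinted placental gene Phlda2 (-2.89), the maternal factor Dppa3 (-2.86), the Nodal inhibitors Lefty1 (-2.84) and Lefty2 (-2.61), and the DNA methyltransferase Dnmt3b (-2.83). The rest of the 15 were Ina, a neuronal intermediate filament (-2.77), Glyatl3 (-2.73), the RNA-binding L1td1 (-2.65), the phospholipase Pla2g1b (-2.64), the basic helix-loop-helix factor Olig1 (-2.63), and the uridine phosphorylase Upp1 (-2.62).

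Transcripts of the stem cell state fell almost without exception. Of 32 genes of core and naive pluripotency, 31 fell and 0 rose, with a median log2 difference of -1.79 (41.7% of all genes fell). Pou5f1, which encodes Oct4 (ENSMUSG00000024406, chromosome 17, 35506018 to 35510772), stood at 24.7, 33.8 and 32.1 FPKM at 10 nM, against the control values above. Its treated samples all lay under the lowest control, at -1.99 ± 0.10 on the log2 scale (adjusted p = 5.1e-10). Sox2, its DNA-binding partner, stood at 38.2, 49.5 and 46.3 FPKM (-1.92 ± 0.086) and Nanog at 48, 62.1 and 58.2 FPKM (-1.79 ± 0.075). In all 3 genes replicate 1 was the lowest treated sample. The steepest falls of the group were those of Dppa3, with 45.1, 53.2 and 51.5 FPKM in the controls and 4.77, 6.45 and 7.06 FPKM at 10 nM, of L1td1, of the let-7 regulator Lin28a (-2.29) and of Dppa2 (-2.28). The threonine dehydrogenase Tdh, which mouse stem cells use to feed one-carbon metabolism, fell by 2.23 on this scale. Among the Krüppel-like factors Klf4 fell from 62.6, 62 and 67.5 FPKM to 35, 35.7 and 37.9 FPKM, Klf5 from 37.6, 39.5 and 44.3 FPKM to 34.2, 28.3 and 29.1 FPKM and Klf2 by 1.25 on the log2 scale. The one member without a call, Tbx3, had 7.62, 7.88 and 7.76 FPKM in the controls and 7.65, 9 and 8.9 FPKM at 10 nM; at 1 nM it stood at 14.9, 15.2 and 15.2 FPKM, above both. In these bulk samples fewer cells of a type and less RNA per cell cannot be told apart. The fibroblast markers whose sums are given above rose in the same samples, and their part in the falls was not tested.

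**Figure D2:**
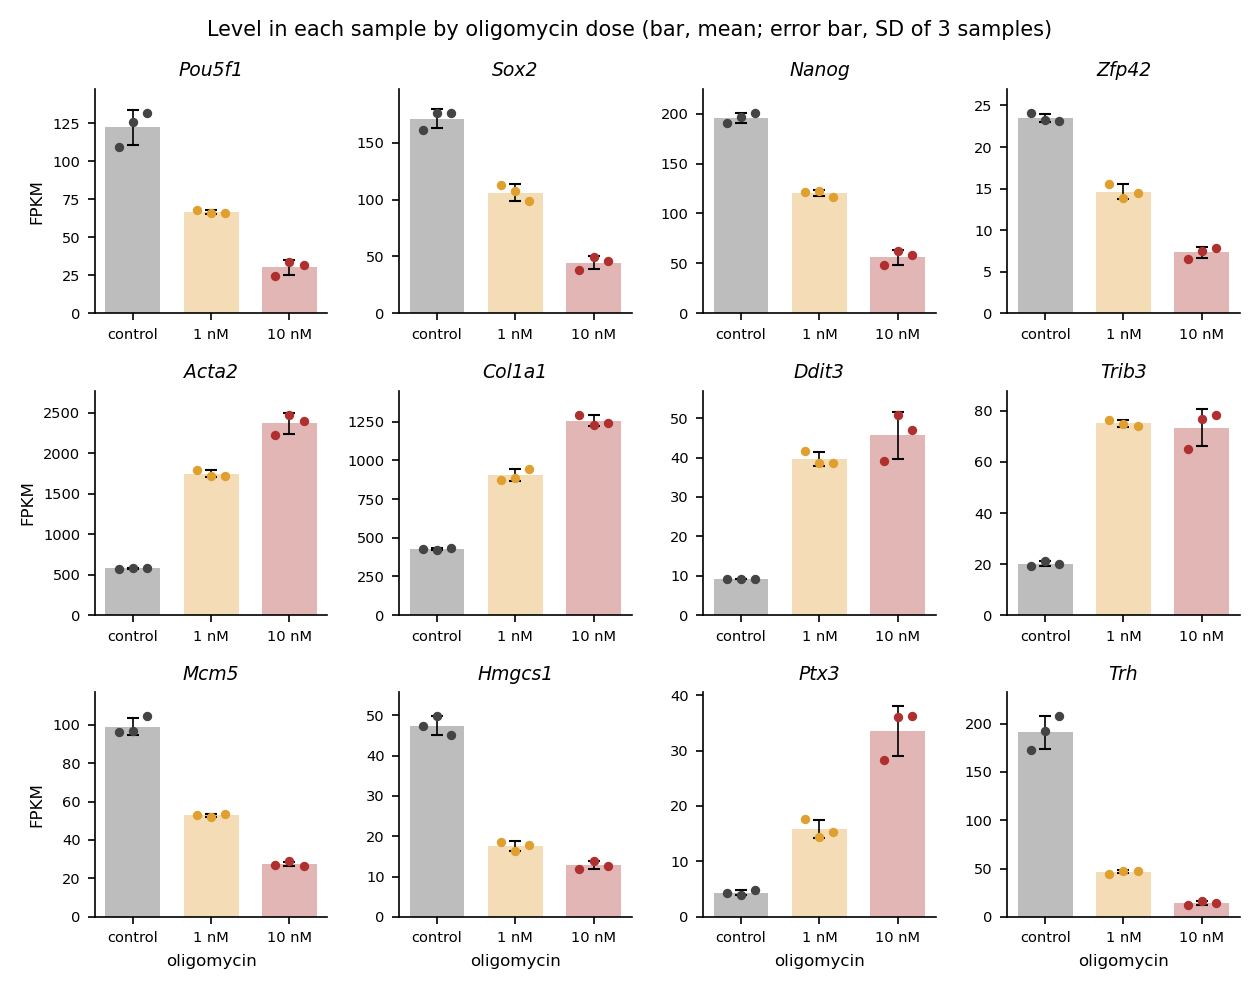
FPKM of 12 genes in each sample of control, 1 nM and 10 nM oligomycin (points; bars are group means from 0, error bars SD, n = 3). Pou5f1, Sox2, Nanog, Zfp42, Mcm5, Hmgcs1 and Trh step down with dose, while Acta2, Col1a1, Ddit3, Trib3 and Ptx3 lie above the controls at both doses.

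Markers of the next embryonic stages fell as well. Among 19 tested genes of formative and primed epiblast, 16 fell and 2 rose (median -1.63). Besides Lefty1, Dnmt3b and Lefty2, these included Tcf15 (-2.43), the zinc finger factors Zic2 (-2.23) and Zic5 (-2.23), and Pou3f1 (Oct6), which had 8.98, 9.33 and 10.4 FPKM in the controls and 2.17, 2.42 and 2.48 FPKM at 10 nM. The members that rose were Cdh2, N-cadherin, from 7.66, 7.66 and 7.87 FPKM to 20.9, 18.3 and 19.3 FPKM, and Fst, follistatin (0.24); Sall2 was not called (-0.12). Lineage markers gave no common direction. In primitive endoderm 7 of 13 tested genes rose and 3 fell; those that rose most were the matrix genes Col4a1, Col4a2 and Sparc, whereas the lineage factors Gata4 and Sox7 were near 1 FPKM in all 6 samples and not called, and Sox17 and Foxa2 were under the filter. Gata6 rose from 1.32, 1.73 and 1.96 FPKM to 3.58, 3.75 and 3.56 FPKM. In trophectoderm 5 of 10 rose, among them the keratins Krt8, Krt18 and Krt19, and 4 fell, among them Tfap2c from 29.6, 31.6 and 32.9 FPKM to 4.97, 5.57 and 6.21 FPKM; Cdx2 and Elf5 were under the filter. Only 5 of 12 mesoderm genes were tested, T, Mixl1 and Mesp1 not being among them. Of 8 neuroectoderm genes 4 rose and 4 fell: Tubb3 fell by 1.80 and Sox1 by 1.53, while Nes (1.23) and Ncam1 (1.60) rose. Among 11 germline genes 9 fell and 1 rose (median -0.66), with the RNA helicase Ddx4 going from 12.4, 11.4 and 11.8 FPKM to 5.53, 5.37 and 4.48 FPKM. Every sample of Ddx4 at 10 nM lay under the controls.

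Signalling pathways that act on stem cells were split. In the LIF-STAT3 list 9 of 14 genes fell and 5 rose. Most targets in the list fell, Pim2 from 31.2, 32.6 and 34.1 FPKM to 3.01, 3.98 and 3.46 FPKM, Gbx2, a homeobox factor, by 2.32, the feedback inhibitor Socs3 by 1.22 and Tfcp2l1 by 1.26 on the log2 scale, whereas Junb, which is also an SRF target, had the largest rise of the list (1.02), from 32.5, 36.1 and 39.9 FPKM to 61.5, 81.3 and 82.1 FPKM; 43.5% of the exon length of Gbx2 is shared with another gene, so its level is uncertain. The receptor subunit Lifr fell from 4.73, 4.69 and 4.11 FPKM to 1.66, 1.75 and 1.68 FPKM, whereas the shared subunit Il6st (gp130), Osmr, Jak1 and Stat3 rose by 0.48, 0.84, 0.86 and 0.31. In the Nodal and TGF-β axis the ligand Nodal (-1.13), its co-receptor Tdgf1 (Cripto, -2.09), Gdf3 (-2.10) and both Lefty genes fell. On the TGF-β side Tgfb1 (1.22), Tgfb2 (1.55) and Tgfb3 rose among ligands, Tgfbr2 (0.84) rose among receptors while Tgfbr1 and Tgfbr3 were not called, and so did the latent binding proteins Ltbp1, Ltbp2 and Ltbp3 (0.97, 1.32 and 1.55). Tgfb3 had 12.6, 11.3 and 12.7 FPKM in the controls and 59.7, 57.1 and 58.5 FPKM at 10 nM, and Inhba, an activin subunit, 42.2, 41.3 and 32.3 FPKM and 114, 95.1 and 99.1 FPKM. The groups of these 2 genes were far apart. Across this list 13 of 23 rose and 8 fell. Tdgf1 and Gdf3 here, and Klf4 and Tfcp2l1 of the LIF-STAT3 list, are also in the pluripotency list. Nodal and both Lefty genes are also in the formative and primed epiblast list, so these falls are not separate results.

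Of 19 tested genes of the BMP and Id axis 15 rose and 1 fell (median 0.75). The Id genes, targets of BMP that block differentiation factors, were Id1 with 17.4, 16.9 and 20.3 FPKM in the controls and 32.5, 44.7 and 44.8 FPKM at 10 nM, Id2 (0.75) and Id3 (1.13). All 3 treated samples of Id1 lay above the controls. The extracellular antagonists Grem1 and Nog rose as well (0.84 and 0.86), as did the inhibitory Smad6 (0.94) and the ligand Bmp4 (0.63); the receptor Bmpr1a was the one fall (-0.17). The FGF-ERK list was split, 9 up and 10 down of 19: Fgf4, the stem cells' own ligand, fell from 53.9, 56.3 and 53.5 FPKM to 17.7, 20.9 and 19.3 FPKM, with Etv5 and Spry4 (-1.31 and -1.25), while Fos, Egr1 and Dusp4 rose (1.28, 0.71 and 0.82). Fgf4 is also in the pluripotency list and Etv5 in the formative list, so their falls are not separate results. Of 12 tested Wnt targets 9 fell and 2 rose, all but Ccnd1 below 5 FPKM in the controls.

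Genes of the smooth muscle contractile apparatus rose throughout. All 18 tested members rose (34.0% of all genes did), with a median of 1.36, and the summed FPKM of the 20 in the table went from 1555 to 1581 in the controls to 4871 to 5079 at 10 nM. Acta2 (ENSMUSG00000035783, chromosome 19, 34241090 to 34255336) had 567, 577 and 588 FPKM in the controls and 2231, 2477 and 2402 FPKM at 10 nM. The lowest treated sample was above the highest control by a wide margin, and the log2 difference was 2.03 ± 0.051 (adjusted p = 1.1e-12); Acta2 was the 4th most abundant gene at 10 nM. The γ-actin Actg2 rose from 72.4, 75.3 and 75.8 FPKM to 231, 265 and 249 FPKM and the regulatory light chain Myl9 from 96.1, 101 and 104 FPKM to 303, 371 and 332 FPKM. Reads of near-identical actin copies may be split between genes, so single actin levels are uncertain. The calponins Cnn1 and Cnn2 (1.67 and 1.56), the tropomyosins Tpm1 and Tpm2 (1.31 and 1.51), caldesmon Cald1 (1.44) and filamin Flna (0.99) rose too. Tagln (SM22α), abundant in smooth muscle, stayed low with 0.463, 0.45 and 0.49 FPKM and 1.38, 2.16 and 2.23 FPKM, and 67.9% of its exon length overlaps other genes. The immediate early genes controlled by the serum response factor (SRF) moved the same way, 15 of 16 rising and 1 falling, led by the matricellular Cyr61 (1.88), Fosb (1.48) and Atf3 (1.45). Srf itself rose from 18.5, 19 and 20.5 FPKM to 21.1, 21.8 and 22.6 FPKM, and Ier2 was the one fall (-0.61). The summed fibroblast markers rose in these samples and their part in the contractile rise was not tested.

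SRF binds the CArG box, a run of 6 A or T letters between 2 C and 2 G. The window from 250 bases before to 50 after the start of each gene, from the RefSeq promoters on GRCm38.p6, was searched on both strands. Counts of windows here and below are counts of genes, each taken once and matched if any of its windows held the letters. A CArG box was found for 149 of the 9378 tested genes with a window (1.59%). Among the contractile genes it was found for 3 of the 15 with a window, namely Cnn2, Myl9 and Vcl. The stretches are shown because these genes carry the box within a short distance of the start, in capitals, at 56, 161 and 227 bases before it. They lie on the + strand at chr10:79988519-79988578, chr2:156775278-156775337 and chr14:20929148-20929205.
Cnn2: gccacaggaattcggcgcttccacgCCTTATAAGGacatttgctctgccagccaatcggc
Myl9: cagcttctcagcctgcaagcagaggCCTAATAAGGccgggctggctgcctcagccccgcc
Vcl: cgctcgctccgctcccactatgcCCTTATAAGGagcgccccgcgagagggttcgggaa
A match describes the letters and is not a bound site, and the boxes of other members outside this window were not searched. Across samples Cnn2 rose from 112, 115 and 124 FPKM to 318, 362 and 361 FPKM, and Vcl, which encodes the adhesion protein vinculin, from 28.2, 24.2 and 23.5 FPKM to 72.8, 41.2 and 48 FPKM. The control and treated samples of both were separate.

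Targets of YAP and its DNA-binding partners, the TEAD factors, which respond to cell shape and stiffness, rose in 13 of 18 cases and fell in 4 (median 1.29). Ctgf went from 108, 108 and 99.8 FPKM to 338, 378 and 376 FPKM, Ankrd1 from 17.9, 18.1 and 16.3 FPKM to 53.7, 61.1 and 54.4 FPKM and the receptor kinase Axl from 66.8, 63.6 and 62.2 FPKM to 231, 195 and 202 FPKM. None of the 3 had overlapping groups, though 23.2% of the exon length of Ctgf is shared with another gene. Amotl2 and Lats2, which restrain YAP, rose by 1.59 and 1.63; Wwc1 and Ajuba fell (-0.68 and -0.51). The letters GGAATG, the core of the TEAD motif, were found on either strand in 1356 of 9378 windows (14.5%) and in 7 of the 11 windows of this list. Shown here are windows of members that rose, with the letters in capitals at 79 bases before the start for Crim1, 65 for Amotl2, where the letters are reversed, and 210 and 123 for Ankrd1. Crim1 (chr17:78200144-78200199) and Amotl2 (chr9:102717714-102717769) lie on the + strand and Ankrd1 (chr19:36119937-36120079) on the - strand.
Crim1: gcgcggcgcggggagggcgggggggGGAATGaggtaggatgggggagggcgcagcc
Amotl2: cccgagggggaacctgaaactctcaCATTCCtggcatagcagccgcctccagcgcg
Ankrd1: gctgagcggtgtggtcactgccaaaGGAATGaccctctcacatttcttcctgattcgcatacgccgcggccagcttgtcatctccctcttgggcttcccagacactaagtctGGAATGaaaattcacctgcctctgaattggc
The list also holds Ajuba, which carries the letters and fell, so that the motif did not go with 1 direction.

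Extracellular matrix genes and the enzymes that process collagen rose together. Of 16 tested collagens 14 rose and 1 fell (median 1.27). Col1a1, the chain of type I collagen (ENSMUSG00000001506, chromosome 11, 94936224 to 94953042), had 426, 419 and 434 FPKM in the controls and 1294, 1229.6 and 1243 FPKM at 10 nM. Its lowest treated sample was above every control, at a log2 difference of 1.56 ± 0.070 (adjusted p = 1.3e-10). Col5a2 (1.72), Col8a1 (1.64) and Col11a1 (1.49) were among the larger rises, and Col18a1, a basement membrane collagen, was the one fall (-0.36). All 19 tested genes of collagen processing and cross-linking rose, with a median of 1.26. Lox, which cross-links collagen, rose from 183, 170.1 and 154 FPKM to 753, 648 and 673 FPKM, the collagen chaperone Serpinh1 (HSP47) from 213, 231 and 243 FPKM to 605, 776 and 753 FPKM and the prolyl hydroxylase subunit P4ha1 from 38.3, 35.5 and 36.1 FPKM to 107, 108 and 106 FPKM. In all 3 the treated samples lay above the controls. In basement membrane genes 12 of 17 rose and 3 fell: the type IV collagen chains Col4a1 (1.71), Col4a2 (1.69) and Col4a5 (1.85) rose, while the embryonic laminin Lama1 fell from 6.99, 6.24 and 6.68 FPKM to 3.47, 2.38 and 2.68 FPKM. Among 13 tested integrins 9 rose, led by the fibronectin and collagen receptor chains Itga11 (1.48), Itga5 (1.38) and Itgb1 (1.26); Itga6 and Itgb7 fell (-0.37 and -0.99). Matrix proteases and their inhibitors rose in 13 of 16 cases, with inhibitors such as Timp1 (1.13) and Timp2 (1.30) beside proteases such as Adamts5 (1.91) and Mmp14 (1.24), and Mmp3 and Mmp10 fell (-1.24 and -0.93).

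The fibroblast markers did not move by 1 common factor. Of 20 tested, 19 rose and 0 fell (median 1.22, and 1.11 without replicate 1 at 10 nM). Some markers, such as Col1a1 and Lox, are also members of the collagen lists above, so these counts are not separate results. Lox rose by 2.03, Fbln2 by 1.58 and Vim (vimentin) by 1.53, whereas Dcn (decorin) rose by 0.38 and the receptor Pdgfra by 0.25. Lum (lumican) had 3.28, 3.11 and 3.86 FPKM in the controls and 3.37, 3.49 and 3.75 FPKM at 10 nM and was not called. Lum thus overlapped between groups in which Lox was several times apart. All 15 tested mesenchymal transcription factors rose (median 1.02). Prrx2 went from 4.42, 4.11 and 6.75 FPKM to 19.8, 23.7 and 25.6 FPKM, Snai2 (Slug) from 11.8, 12.8 and 11 FPKM to 28.8, 31.7 and 30.4 FPKM and Twist1 from 9.12, 10.4 and 12 FPKM to 20.6, 28.6 and 26.1 FPKM. Each was separate from the controls, and in Prrx2 replicate 1 was the lowest treated sample. Epithelial genes took the other direction: 17 of 22 fell and 2 rose (median -0.69). Cdh1, E-cadherin, had 107, 105 and 105 FPKM in the controls and 54, 47.5 and 49.3 FPKM at 10 nM, and Epcam 127, 131 and 137 FPKM and 38.2, 48.7 and 49.3 FPKM. No treated sample of either reached a control. The members that rose were the keratins Krt8 (0.79) and Krt18 (0.98), and the claudin Cldn4 was not called (0.0093).

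Effectors of the integrated stress response rose at 10 nM, while the kinases that start it moved little. Of 20 genes 17 rose and 1 fell (median 1.26). Atf4 had 169, 178 and 188 FPKM in the controls and 218, 270.1 and 259.7 FPKM at 10 nM (0.48 ± 0.070, adjusted p = 2.5e-05), and Ddit3 (ENSMUSG00000025408, chromosome 10, 127290774 to 127296288), whose values are given above, changed by 2.19 ± 0.072 (adjusted p = 6.9e-12). Trib3, a pseudokinase that restrains ATF4, went from 19.2, 21.3 and 20 FPKM to 65.1, 76.9 and 78.5 FPKM and Ppp1r15a (GADD34), which dephosphorylates eIF2α, from 18.2, 17.3 and 19.8 FPKM to 57.5, 65.3 and 64.5 FPKM. For each of these the treated samples lay above all controls. The secreted stress cytokine Gdf15 rose from 4.18, 3.87 and 4.55 FPKM to 15.5, 20.2 and 21.1 FPKM, and Fgf21 stayed near 1 FPKM, with 0.399, 0.529 and 0.301 FPKM and 0.68, 1.53 and 1.35 FPKM. Among the eIF2α kinases Eif2ak1 (HRI) fell by 0.32, Eif2ak2 (PKR) and Eif2ak3 (PERK) rose by 0.25 and 0.14, and Eif2ak4 (GCN2) and the mitochondrial protease Oma1 were not called (-0.071 and -0.18).

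ATF4 and its partners bind the C/EBP-ATF response element, searched here as TGATGNAA on both strands. It was found in 255 of 9378 windows (2.72%), in 6 of the 20 windows of the stress response list, in 5 of 12 for cytosolic tRNA synthetases, in 3 of 14 for serine, asparagine, proline and folate synthesis and in 3 of 15 for amino acid transporters. The stretches below hold the element in capitals and are shown since the genes that carry it moved by very different amounts. Chac1 (chr2:119351024-119351081), Vldlr (chr19:27216795-27216852) and Aars (chr8:111033705-111033762) lie on the + strand, and Atf3 (chr1:191183411-191183468), Nupr1 (chr7:126625548-126625605), Slc7a11 (chr3:50443628-50443704) and Asns (chr6:7693210-7693257) on the - strand.
Chac1: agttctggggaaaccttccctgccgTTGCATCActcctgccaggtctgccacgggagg
Atf3: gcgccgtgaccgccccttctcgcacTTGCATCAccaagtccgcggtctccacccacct
Nupr1: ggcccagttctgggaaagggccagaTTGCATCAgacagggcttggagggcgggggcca
Vldlr: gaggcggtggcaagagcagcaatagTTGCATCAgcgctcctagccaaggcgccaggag
Slc7a11: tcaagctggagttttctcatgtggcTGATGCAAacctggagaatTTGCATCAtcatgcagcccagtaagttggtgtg
Asns: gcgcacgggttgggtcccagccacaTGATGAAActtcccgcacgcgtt
Aars: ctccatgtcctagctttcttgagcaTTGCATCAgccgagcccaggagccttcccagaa
Chac1, which degrades glutathione, rose from 14.3, 14.2 and 15.3 FPKM to 38.3, 39.8 and 40.7 FPKM, Nupr1, a stress-induced nuclear protein, from 9.92, 9.32 and 10.6 FPKM to 22.9, 33.3 and 31.4 FPKM and Vldlr, a lipoprotein receptor, from 2.26, 2.21 and 1.98 FPKM to 9.08, 7.07 and 7.37 FPKM. These 3 were separate from the controls, as was Atf3 with 4.5, 4.62 and 4.37 FPKM and 12, 15.4 and 14.8 FPKM. The cystine transporter Slc7a11, whose window holds the element in both orientations, had 1.07, 0.816 and 0.778 FPKM and 3.47, 2.15 and 2.47 FPKM. Asns, asparagine synthetase, had 134, 139.5 and 146 FPKM in the controls and 143, 166 and 158 FPKM at 10 nM, a log2 difference of 0.15 ± 0.060 (adjusted p = 0.032), which no longer passed in a fit of these 6 samples alone (adjusted p = 0.12).

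Genes of amino acid supply, several of them known targets of ATF4, were split. In serine, asparagine, proline and folate synthesis 9 of 17 rose and 7 fell (median 0.15). The mitochondrial folate enzymes Aldh1l2 (3.07, 2.46 and 2.27 FPKM, then 15.4, 8.73 and 10.3 FPKM) and Mthfd2 (0.49) rose, with Phgdh, the first enzyme of serine synthesis (0.47). The cytosolic folate enzymes Shmt1 and Mthfd1 fell, from 31.5, 33.6 and 34.2 FPKM to 7.3, 8.98 and 8.12 FPKM and from 119, 121 and 123 FPKM to 34.8, 36.6 and 38.1 FPKM. The mitochondrial Mthfd1l fell too (-0.43). Cytosolic tRNA synthetases were 6 up and 10 down of 20, from Sars (0.48) to Kars (-0.73), and of 17 mitochondrial ones 13 fell and 1 rose. Among 20 amino acid transporters 10 rose, led by Slc6a9 (1.19) and Slc1a4 (1.05), and 8 fell, led by the arginine transporter Slc7a3 (-1.06); 30.3% of the exon length of Slc6a9 is shared with another gene.

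Chaperone genes differed by compartment. In the endoplasmic reticulum 12 of 24 rose and 4 fell, and the main chaperones Hspa5 (BiP), Calr and Canx were not called: Hspa5 had 214, 219 and 207 FPKM in the controls and 203, 237 and 226 FPKM at 10 nM. Herpud1, of the degradation machinery, rose from 12.4, 12.1 and 10.9 FPKM to 25.7, 30.4 and 28.2 FPKM, and Derl3 fell by 1.09. In the cytosol 9 of 15 heat shock genes fell and 3 rose: Hspa8 fell from 1027, 1060.1 and 1084 FPKM to 327, 411 and 373 FPKM and Hsp90ab1 from 1987, 2005 and 2090.4 FPKM to 1073, 1114 and 1097 FPKM, whereas the small heat shock protein Cryab rose from 32.5, 32 and 37.5 FPKM to 91.1, 115 and 115 FPKM. No group of these 3 genes overlapped. Among 16 mitochondrial chaperones and proteases 10 fell and 3 rose. The chaperonin Hspd1 (HSP60) fell from 493, 506 and 486 FPKM to 232, 242 and 239 FPKM and the scaffold Phb from 60.9, 64.1 and 72 FPKM to 19.6, 24.7 and 24.7 FPKM; the protease Lonp1 and the chaperone Hspa9 (mortalin), both linked to ATF4 and ATF5, rose by 0.55 and 0.28.

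Transcripts of the enzyme that oligomycin binds were lower. Of 19 nuclear genes of the ATP synthase 13 fell and 1 rose (median -0.42). The subunits of the catalytic head, Atp5a1 and Atp5b, fell by 0.63 and 0.39: Atp5a1 had 350.0, 356 and 379.6 FPKM in the controls and 226, 233 and 240.3 FPKM at 10 nM, and Atp5b 396, 405 and 423 FPKM and 306, 309 and 318 FPKM. Both genes' groups were separate. The c-ring, to which oligomycin binds, is encoded by 3 genes that differ only in their import sequences: Atp5g1 fell from 18.1, 19.9 and 22.1 FPKM to 8.94, 13.5 and 12.6 FPKM and Atp5g3 from 79.6, 88.5 and 88.5 FPKM to 49.1, 69.1 and 72.1 FPKM, while Atp5g2 was not called, with 83.3, 85.7 and 93.6 FPKM and 72.9, 84 and 84.2 FPKM. The inhibitor Atpif1 fell by 0.59, with 33.7% of its exon length shared, and Atp5d was the one rise (0.31).

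The respiratory chain showed no common direction in complex I, where 4 of 35 genes rose, 6 fell and 25 were not called. Without replicate 1 at 10 nM the rises numbered 15, so this count rests on that library. Ndufs6 had the largest fall, from 39.7 ± 4.92 FPKM (SD, n = 3) to 24.1 ± 4.83 FPKM. In complexes II to IV 13 of 28 fell, a share near the 41.7% of all genes, and 3 rose, or 9 without replicate 1. The cytochrome oxidase subunit Cox7c fell from 147, 159 and 175 FPKM to 68.4, 97.6 and 96.6 FPKM. The muscle and testis isoforms Cox6a2 (1.51) and Cox6b2 (0.60) rose, Cox6a2 from under 1 FPKM. Transcripts made in the mitochondrion were split, 4 up and 5 down of 12, near the 34.0% and 41.7% of all genes. mt-Nd1 fell from 2522, 2156 and 2248 FPKM to 1017, 1014 and 999 FPKM, whereas mt-Nd5 rose from 725, 614 and 624 FPKM to 875, 935 and 867 FPKM. mt-Atp6, a subunit of the ATP synthase, fell from 45.9, 44.2 and 40.1 FPKM to 22.2, 27 and 27 FPKM. Its control level was far under the control means of mt-Co1 (5200 FPKM) and mt-Cytb (1665 FPKM). The neighbouring mt-Atp8 had 0, 0 and 0.281 FPKM in the controls and 0 FPKM in each 10 nM sample. How reads of these genes were assigned is not stated, so the level of mt-Atp6 is uncertain. The nuclear genes that maintain mitochondrial DNA and its expression fell: 14 of 18, with 1 rising (median -0.54). Tfam, which packs mitochondrial DNA, fell from 21.6, 22.3 and 20.1 FPKM to 8.73, 9.88 and 9.73 FPKM, and Twnk (the helicase), Polrmt and Pprc1 fell by 0.94, 0.46 and 1.06. The regulator Esrra was the one rise (0.60). Mitochondrial ribosomal proteins fell in 51 of 76 cases and rose in 3, or 8 without replicate 1, with Mrpl18 falling most (-1.55).

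Genes of glycolysis did not move as 1 block: 11 of 27 rose and 8 fell, beside 34.0% and 41.7% of all genes. The neuronal enolase Eno2 rose from 3.63, 3.85 and 3.55 FPKM to 16, 16.7 and 16.8 FPKM, the hexokinase Hk1 from 9.14, 8.63 and 9.09 FPKM to 17.8, 17.8 and 17.1 FPKM and the lactate exporter Slc16a3 (MCT4) from 18, 21 and 22.6 FPKM to 32, 34.7 and 34.2 FPKM. These 3 were above the controls in each treated sample. The lactate transporter Slc16a1 (MCT1) fell from 43, 42.3 and 41.2 FPKM to 16.1, 15.3 and 15.1 FPKM, Pkm from 555, 562 and 594 FPKM to 393, 393 and 392 FPKM and Gapdh by 1.02, the last with many pseudogene copies that can take its reads. MCT4 and MCT1 thus exchanged their order of abundance in FPKM. Ldha, lactate dehydrogenase A, had 365, 374 and 404 FPKM in the controls and 354, 383 and 396 FPKM at 10 nM and was not called. For HIF targets outside glycolysis 14 of 23 rose and 5 fell (median 0.49). Vegfa rose from 20.1, 21.3 and 21.2 FPKM to 57.5, 62.2 and 61.9 FPKM. Ero1l, a disulfide oxidase, rose from 24.9, 25 and 23.3 FPKM to 80.4, 64.9 and 68.8 FPKM. Pdk1, a kinase that inhibits pyruvate dehydrogenase, fell from 21.9, 21.1 and 21 FPKM to 8.65, 8.28 and 8.46 FPKM. The regulators Hif1a and Vhl were not called (0.10 and -0.063). The hypoxia element letters ACGTG lay in 2770 of 9378 windows (29.5%) and in 11 of the 18 windows of this list. In the TCA cycle 6 of 31 rose, or 12 under either other scaling, and 14 fell, beside 34.0% and 41.7% of all genes. Citrate synthase, Cs, had 62.6, 65.1 and 65.5 FPKM and 66.8, 67 and 66.6 FPKM. Beta oxidation rose in 13 of 21 cases and fell in 4, with Acot2 (3.8, 4.1 and 4.59 FPKM, then 19.4, 23.3 and 23.3 FPKM) far ahead of Acadl (0.86) and Acaa2 (0.83).

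Genes of cholesterol synthesis fell in most cases, and those of fatty acid synthesis were split. Of 29 tested genes of cholesterol synthesis and sterol sensing 24 fell and 3 rose (median -1.03). Hmgcs1, HMG-CoA synthase, had 47.4, 49.7 and 45 FPKM in the controls and 11.9, 13.9 and 12.6 FPKM at 10 nM, Idi1 22, 19.7 and 18.6 FPKM and 3.34, 2.1 and 2.6 FPKM, and Insig1, which retains the sensor in the endoplasmic reticulum when sterols are high, 31.7, 33 and 30.9 FPKM and 5.07, 4.9 and 5.85 FPKM. Every treated sample lay far under the controls for the 3 genes. Srebf2, the transcription factor of the pathway, fell by 0.94. The exceptions were Insig2, which rose from 6.6, 6.85 and 7.07 FPKM to 11.6, 12.2 and 12.3 FPKM, the sensor Scap (0.40) and the exporter Abca1 (0.56). A sterol response element, searched as TCACNCCA on both strands, lay in 421 of 9378 windows (4.49%) and in 3 of the 21 windows of the list. These are shown with the element in capitals, at 137 bases before the start in Hmgcs1 (chr13:119690189-119690246, + strand), 177 in Msmo1 (chr8:64733723-64733780, - strand) and 162 in Srebf2 (chr15:82147082-82147139, + strand).
Hmgcs1: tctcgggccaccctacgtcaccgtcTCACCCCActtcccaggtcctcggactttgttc
Msmo1: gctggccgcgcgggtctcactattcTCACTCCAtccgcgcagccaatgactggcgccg
Srebf2: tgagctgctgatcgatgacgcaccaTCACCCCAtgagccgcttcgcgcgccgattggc
All 3 genes fell, Msmo1 (a sterol demethylase) from 16.1, 15.9 and 16.4 FPKM to 6.8, 7.96 and 7.42 FPKM. In fatty acid synthesis 12 of 21 fell and 5 rose, beside 41.7% and 34.0% of all genes. Fasn (fatty acid synthase) fell from 57.6, 55.8 and 57.1 FPKM to 19.3, 14.1 and 15.6 FPKM and the elongase Elovl6 from 34.3, 31 and 29.4 FPKM to 8.85, 6.48 and 7.12 FPKM, while the malic enzyme Me1, Fads3, a member of the desaturase family, and the elongase Elovl1 rose by 1.20, 1.90 and 1.02. Fasn and Elovl6 were each below all controls.

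Genes of DNA replication and mitosis fell with hardly an exception. Among 25 licensing genes 24 fell and 0 rose (median -1.15), all 25 tested polymerase and fork genes fell (median -1.33) and all 37 mitotic genes fell (median -1.11). Mcm5, of the helicase that opens the origins (ENSMUSG00000005410, chromosome 8, 75109569 to 75128439), had 96, 96.8 and 104 FPKM in the controls and 26.8, 28.9 and 26.7 FPKM at 10 nM. The treated samples were all far under the controls, at -1.81 ± 0.049 (adjusted p = 1.7e-12). The clamp Pcna fell from 130.5, 141 and 143 FPKM to 33.6, 47.8 and 46.2 FPKM, Ccne1 (cyclin E1) from 78.7, 81.3 and 87.7 FPKM to 21.3, 24.4 and 24.7 FPKM and Ccnb1 (cyclin B1) from 101, 102 and 102 FPKM to 32.2, 35.2 and 34.4 FPKM. None of these overlapped the controls. Orc4, of the origin recognition complex, was the one licensing gene not called (0.035). The E2F site, searched as TTTNNCGC on both strands, lay in 941 of 9378 windows (10.0%), in 10 of 20 for licensing genes, 8 of 21 for fork genes and 4 of 32 for mitotic genes. Shown are 3 licensing genes, with the letters in capitals. Mcm5 (chr8:75109331-75109392, + strand) has 2 overlapping matches in opposite orientation at 153 and 149 bases before the start, Mcm6 (chr1:128359720-128359840, - strand) has 3 at 110, 106 and 47, of which the first 2 overlap, and Cdc6 (chr11:98907988-98908045, + strand) has 1 at 138.
Mcm5: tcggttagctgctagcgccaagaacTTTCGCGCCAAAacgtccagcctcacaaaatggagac
Mcm6: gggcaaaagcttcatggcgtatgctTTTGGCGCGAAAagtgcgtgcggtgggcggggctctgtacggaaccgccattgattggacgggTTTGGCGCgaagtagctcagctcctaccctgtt
Cdc6: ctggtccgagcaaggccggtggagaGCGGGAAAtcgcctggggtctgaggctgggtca
Mcm6 fell from 91.2, 89.3 and 88.8 FPKM to 27, 25.9 and 24.6 FPKM and Cdc6, the loader of the helicase, from 13.1, 13.3 and 13.9 FPKM to 3.01, 3.3 and 3.3 FPKM. Their groups were separate, as for Mcm5.

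Across cyclins, cyclin-dependent kinases and their inhibitors 8 of 27 genes rose and 15 fell, beside 34.0% and 41.7% of all genes. Of the inhibitors, Cdkn1a (p21) had 113, 115 and 118 FPKM in the controls and 242, 273 and 274 FPKM at 10 nM, Cdkn2a (p16 and p19Arf) 13.7, 12.9 and 16.9 FPKM and 27.4, 40.5 and 40.3 FPKM, and Cdkn2b (p15) 21.8, 20.4 and 24 FPKM and 44.3, 54.5 and 54.5 FPKM. All 3 were above the controls throughout, with replicate 1 the lowest treated sample of Cdkn2a. The inhibitors Cdkn1b, Cdkn1c and Cdkn2d were not called. The D cyclins were split, Ccnd2 rising from 33.8, 31.7 and 28.8 FPKM to 81.2, 63.2 and 66.6 FPKM and Ccnd3 falling by 0.41. Targets of p53 rose in 14 of 23 cases and fell in 5: Plk2 (1.35), Fas (1.26), Phlda3 (1.00) and Mdm2 (0.67) rose, whereas Trp53 itself fell from 104, 111 and 125 FPKM to 58.8, 70.5 and 67 FPKM and the pro-apoptotic Bax and Bbc3 (Puma) were not called. Regulators of apoptosis were 7 up and 8 down of 21, near the 34.0% and 41.7% of all genes. Among them Bcl2l1 (BCL-XL, 1.07) and Casp8 (1.03) were up and Mcl1 (-0.56) and Bcl2l11 (BIM, -0.61) down. Only 17 of 57 clustered histone genes passed the filter, 8 falling and 2 rising; their transcripts lack poly(A) tails and their copies are alike, so these levels are uncertain.

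Genes that build nucleotides, polyamines and ribosomes fell together. In nucleotide synthesis 23 of 25 fell and 0 rose (median -1.08), the purine enzyme Ppat from 46.8, 47.2 and 47.5 FPKM to 11.3, 12.7 and 12.5 FPKM, Dut from 65.8, 66.8 and 73.3 FPKM to 13.5, 19.9 and 18.4 FPKM and the ribonucleotide reductase subunit Rrm2 from 149, 153 and 151 FPKM to 48.9, 51.4 and 53.1 FPKM. Each lay under the controls in every sample. Dhodh, the pyrimidine enzyme that hands electrons to the respiratory chain, fell by 0.94, from 6.4, 6.91 and 6.72 FPKM to 2.8, 3.15 and 3.01 FPKM. In polyamine and methyl donor metabolism 16 of 18 fell and 2 rose (median -1.19). Odc1, the first enzyme of polyamine synthesis, fell from 320.2, 320.0 and 338 FPKM to 139, 115 and 126 FPKM and Gldc, glycine decarboxylase, from 64.9, 69.3 and 70.3 FPKM to 15.3, 17.3 and 16.7 FPKM, while Sat1, which degrades polyamines, rose from 18.4, 19.5 and 19.2 FPKM to 26, 37.8 and 36.7 FPKM. Of 35 genes of ribosome biogenesis and the MYC family 34 fell and 1 rose (median -0.95). Mycn fell from 84.2, 91.1 and 92.8 FPKM to 13.6, 16.9 and 16.8 FPKM, nucleophosmin Npm1 by 1.05 and nucleolin Ncl by 1.11. The gene that rose was Myc, with 25, 26.4 and 27.2 FPKM in the controls and 34, 41.2 and 39.5 FPKM at 10 nM. Mycn and Myc thus took opposite directions, and Myc became the more abundant of the 2 in FPKM. Cytosolic ribosomal proteins moved less, 27 of 76 falling and 1 rising with a median of -0.11; the rises numbered 20 without replicate 1 at 10 nM, and the falls 46 under quantile scaling, so neither count is firm, and pseudogene copies add to this. Among 25 translation factors 18 fell and 4 rose, with Eif4a1 and Eif4ebp2 falling most (-1.11 and -1.14).

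Chromatin regulators fell more often than they rose. In DNA methylation and demethylation 11 of 18 fell and 5 rose: the methyltransferases Dnmt3b (92.3, 92.4 and 93.3 FPKM, then 12.6, 12.5 and 11.4 FPKM), Dnmt3a (-1.75) and Dnmt1 (-1.12), and the dioxygenase Tet1, from 33, 30.4 and 27.7 FPKM to 7.05, 4.73 and 4.85 FPKM. Among those that rose were Mbd2 and the Gadd45 genes Gadd45a, Gadd45b and Gadd45g (0.81, 0.55 and 1.23). Polycomb genes fell in 17 of 26 cases and rose in 5. The subunits linked to stem cells fell, Jarid2 from 37.2, 36 and 34.4 FPKM to 10.3, 10.4 and 10.9 FPKM and Cbx7 from 28.7, 29.9 and 29.2 FPKM to 12.9, 11.8 and 11.7 FPKM, and the methyltransferase Ezh2 by 1.15, while Bmi1 rose from 4.28, 4.1 and 3.94 FPKM to 7.77, 8.09 and 7.16 FPKM. Polycomb subunits therefore moved in opposite directions. Paralogs among the remodellers did so too: of 25 genes 17 fell and 6 rose, with Smarca4 (BRG1, -0.48) and Smarcc1 (-1.08) down and their paralogs Smarca2 (BRM, 0.69) and Smarcc2 (0.53) up. Imprinted genes were 11 up and 8 down of 22. Phlda2 fell from 44.5, 47.9 and 53.2 FPKM to 4.33, 6.42 and 6.43 FPKM, and H19, a noncoding RNA, rose from 79, 79.4 and 83.6 FPKM to 160.2, 182 and 172 FPKM, as did Igf2 (1.33, with 64.6% of its exon length shared) and the noncoding Meg3 (1.45).

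Lysosomal genes rose broadly: 29 of 38 rose and 3 fell (median 0.72). The protease Ctsd went from 88.6, 83.6 and 94.1 FPKM to 186, 193 and 192 FPKM, the α-glucosidase Gaa from 25, 25.4 and 27.9 FPKM to 67.4, 64.6 and 67.2 FPKM and prosaposin Psap from 182, 180.2 and 188 FPKM to 398, 385 and 401 FPKM. All were above the controls. The genes for the transcription factors that drive this set, Tfeb and Tfe3, fell, from 3, 2.86 and 3.6 FPKM to 1.54, 1.59 and 1.72 FPKM and from 13.9, 13.7 and 14.5 FPKM to 10.1, 9.91 and 9.46 FPKM, and most tested cytosolic subunits of the proton pump, such as Atp6v1a (0.11), were not called. Of 28 autophagy genes 17 rose and 9 fell, with the receptor Sqstm1 (p62) rising from 102, 108 and 112 FPKM to 283, 331 and 327 FPKM and the kinase Ulk1 falling from 31.1, 30 and 31.3 FPKM to 17.4, 12.5 and 14 FPKM. Proteasome genes went down, 30 of 36 falling and 1 rising (median -0.47), Psma5 by 0.89. In the antioxidant list 12 of 25 rose and 7 fell: Hmox1, heme oxygenase, rose from 112, 118 and 123 FPKM to 284, 321 and 308 FPKM and Nqo1 from 41.6, 39.2 and 41 FPKM to 92.7, 104 and 105 FPKM, while Gsr, glutathione reductase, and the mitochondrial Sod2 fell by 1.36 and 1.14. Of 12 genes of metal binding and iron 8 fell and 2 rose (median -0.41); the importer Tfrc fell from 48.4, 46.1 and 41.9 FPKM to 16.2, 14.9 and 15.1 FPKM, and the rises were those of the ferritin chains Fth1, from 714, 731 and 815 FPKM to 1272, 1510.0 and 1466 FPKM, and Ftl1 (0.73).

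Immune genes rose more often than they fell. In the interferon and antigen presentation list 17 of 25 rose and 2 fell, the class I light chain B2m from 258, 251 and 264 FPKM to 592, 736 and 698 FPKM and H2-D1 by 1.26; H2-K1 was not called (-0.011), and class I genes are alike in sequence. The falls were Ifitm1 and Irf1 (-0.58). Chemokines, cytokines and their receptors rose in 16 of 23 cases and fell in 3 (median 0.57). Csf1 went from 61.7, 62 and 58.6 FPKM to 259.7, 249 and 242 FPKM and Ptgs2 (COX-2) from 46.8, 44.6 and 37.6 FPKM to 119.9, 108 and 107 FPKM. Neither overlapped its controls. Macrophage markers were 12 up and 3 down of 20: Cd68 (0.84), Cd14 (1.02) and Tyrobp (0.82) rose, the complement genes C1qa and C1qb fell (-0.95 and -1.02) and Spp1, the most abundant, had 561, 568 and 555 FPKM and 475, 658 and 597 FPKM. Ptprc (CD45) and Itgam were under the filter. The part of any macrophages in the immune rises was not tested.

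**Figure D3:**
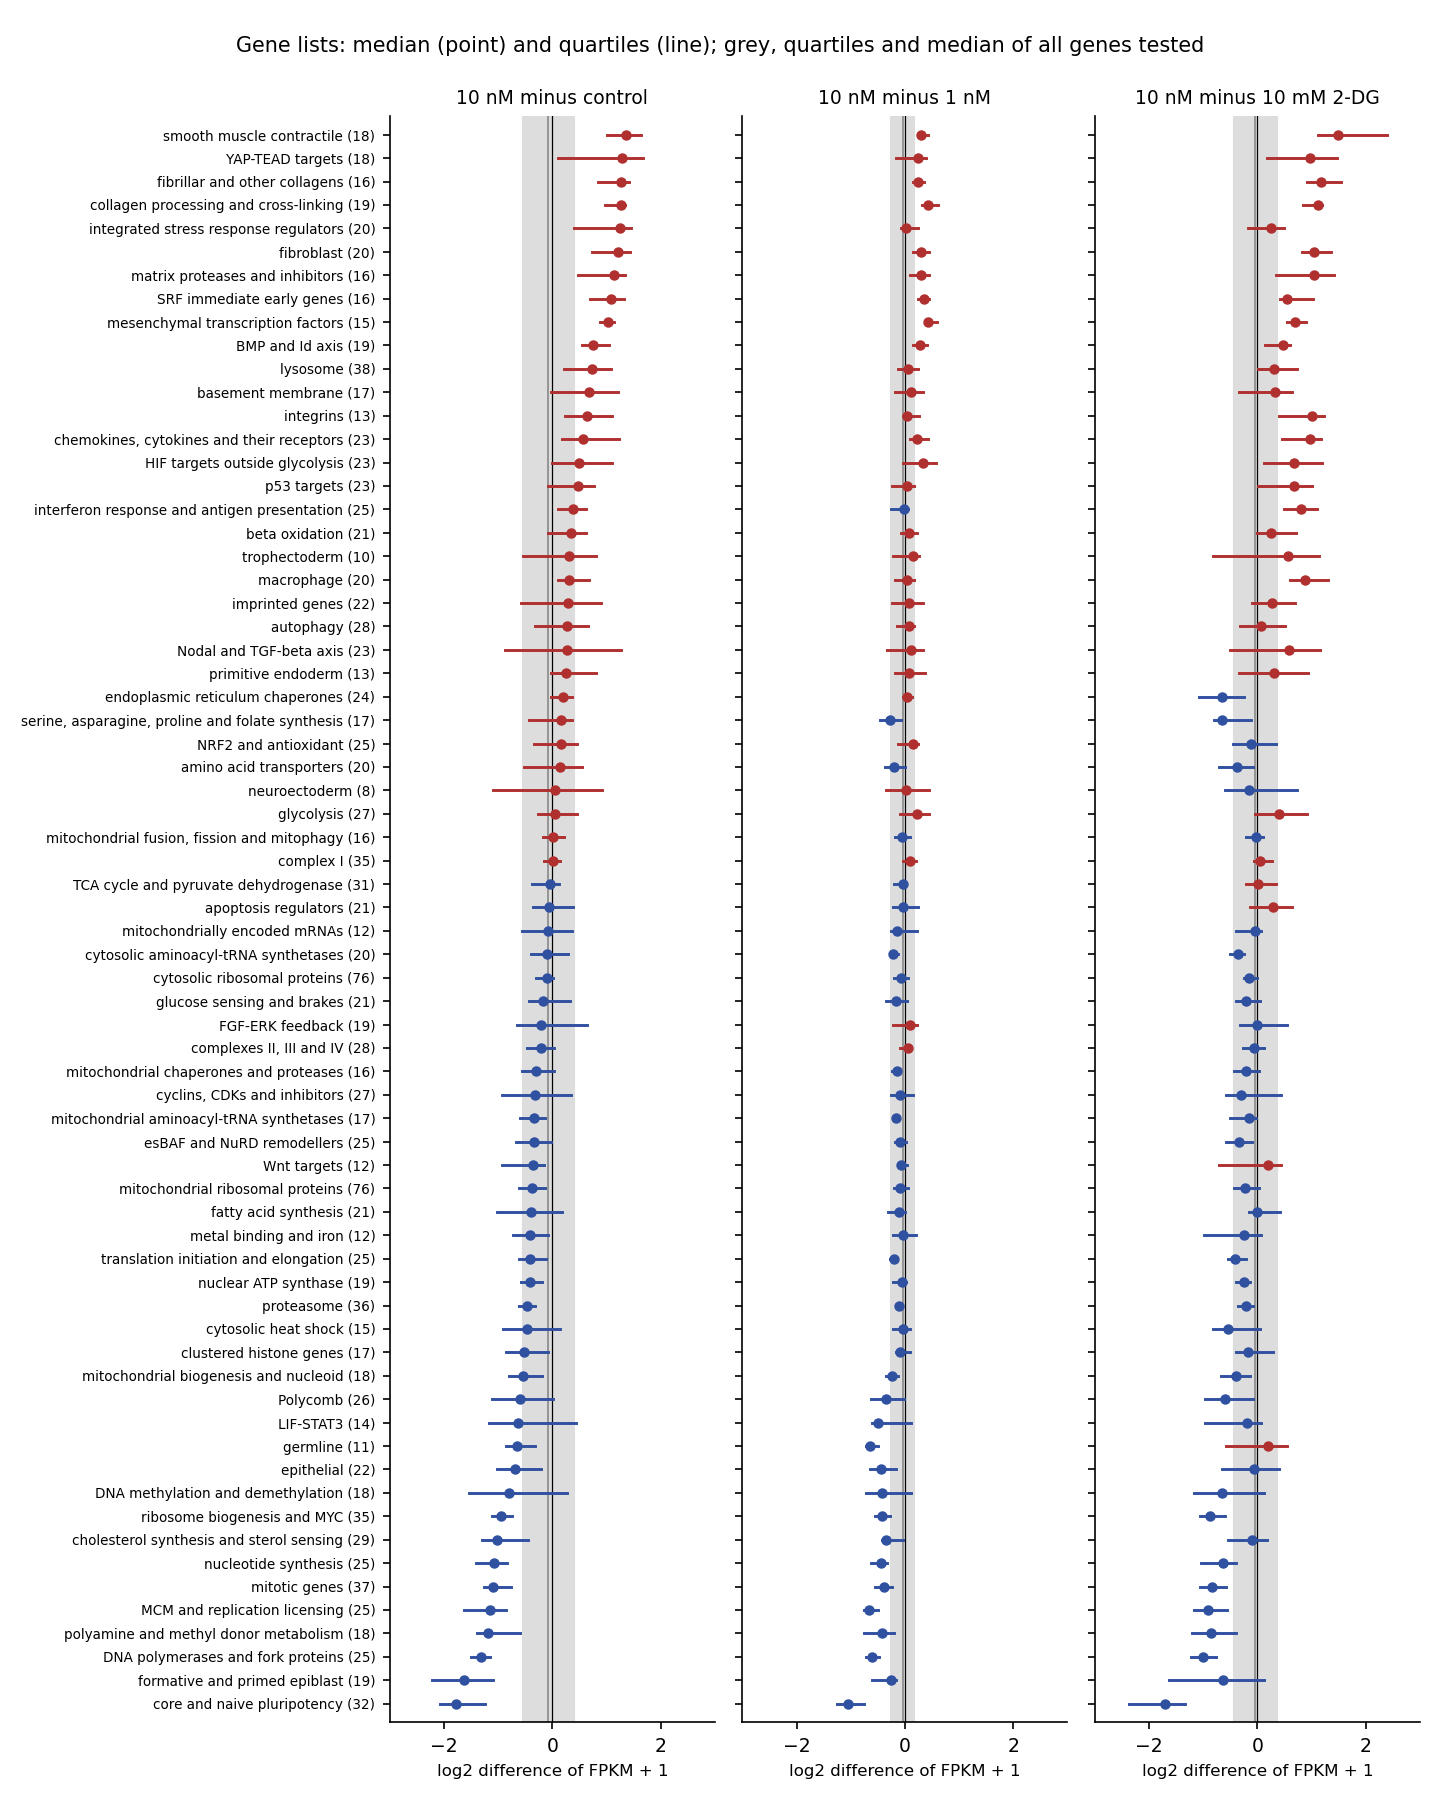
Median (points) and quartiles (bars) of the log2 difference of FPKM + 1 for the gene groups with at least 8 tested genes, in 3 comparisons of 10 nM oligomycin: against control, against 1 nM and against 10 mM 2-DG, with all genes in grey. Against control, pluripotency (-1.79) and formative (-1.63) genes have the lowest medians and contractile (1.36), collagen (1.27) and stress response (1.26) genes are among the highest.

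The step from 1 nM to 10 nM is a comparison without the controls, and it called 46.4% of the genes, 18.7% higher at 10 nM and 27.6% lower. Under median-ratio scaling the split was 3154 higher against 3142 lower and under quantile scaling 3347 against 3042, where the values as scaled here gave 2489 against 3672, so the balance of directions is not fixed by these data. Of the 4523 genes that rose from control to 10 nM, 2302 (50.9%) were also higher at 10 nM than at 1 nM, and of the 5544 that fell, 3364 (60.7%) were also lower; the 10 nM libraries enter both comparisons. Pluripotency genes differed between the doses without exception, 32 of 32 being lower at 10 nM (median -1.05): Nanog had 121, 123 and 117 FPKM at 1 nM and Dppa3 25.2, 18.5 and 21 FPKM, between the control and 10 nM values. Esrrb stood at 73.2, 73 and 74.3 FPKM in the controls, 58.4, 62.8 and 61.3 FPKM at 1 nM and 21.2, 20.5 and 20.2 FPKM at 10 nM, and Tfcp2l1 at 21.7, 19.8 and 19.2, then 17.4, 20.4 and 20.8, then 9.06, 7.32 and 7.26 FPKM. The greater part of the fall of these 2 genes lay between the doses. Fork genes (23 of 25 lower), licensing genes (21 of 25), mitotic genes (32 of 37), ribosome biogenesis (29 of 35) and nucleotide synthesis (20 of 25) also went on falling, and germline genes were lower in 10 of 11 cases. Collagen processing was higher in all 19 of 19 (median 0.43), mesenchymal factors in 14 of 15 and contractile genes in 12 of 18 (median 0.30).

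Most members of the stress response differed little between the doses. Of its 20 genes 6 were higher at 10 nM than at 1 nM, 0 lower, and the median was 0.018. Ddit3 had 41.8, 38.6 and 38.6 FPKM at 1 nM, Trib3 76.6, 75 and 74 FPKM and Atf4 287, 272 and 272 FPKM. Trib3 and Atf4 did not differ between the doses by a called amount (-0.037 and -0.16), and Ddit3 was higher at 10 nM by 0.19. Atf5, Ppp1r15a and Ddit4 were also higher at the higher dose (0.54, 0.25 and 0.34). Amino acid synthesis genes were lower at 10 nM than at 1 nM in 12 of 17 cases and higher in 0, tRNA synthetases in 13 of 20 and transporters in 12 of 20. Asns had 209.7, 202 and 201 FPKM at 1 nM, above all samples of both other groups, and the difference between doses was -0.39 ± 0.060 (adjusted p = 1.3e-04). The synthesis genes, the synthetases and the transporters thus had more members called lower at the higher dose than higher.

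A group of glycolytic and hypoxia genes went the other way. Glycolysis genes were higher at 10 nM than at 1 nM in 14 of 27 cases and lower in 4 (median 0.22), and HIF targets in 15 of 23 (median 0.34). Fam162a, a HIF target, had 69.1, 83 and 85.8 FPKM in the controls, 83.4, 75.5 and 79.6 FPKM at 1 nM and 136, 213 and 201 FPKM at 10 nM, a step of 1.17 ± 0.14 between the doses (adjusted p = 1.3e-05). Control and 1 nM overlapped, and replicate 1 was the lowest at 10 nM. Slc16a3 stood at 17.1, 16.3 and 17 FPKM at 1 nM, below its controls, and Ldha at 279.5, 249 and 253 FPKM, below both other groups. Slc2a1, the main glucose transporter, had 118, 120.3 and 129.7 FPKM in the controls, 95.5, 97.1 and 102 FPKM at 1 nM and 129, 138 and 138 FPKM at 10 nM, and Myc 21.8, 22.4 and 22.6 FPKM at 1 nM. Egln3, a HIF prolyl hydroxylase named after its values were seen, had 9.93, 9.46 and 9.52, then 5.14, 5.5 and 5.4, then 8.64, 7.91 and 8.86 FPKM. Slc16a3, Ldha, Slc2a1, Myc and Egln3 were thus lower than the controls at the lower dose and higher again at 10 nM. The sialidase Neu1, also named after its values were seen, did the reverse, with 6.01, 5.39 and 5.91, then 12.3, 11.9 and 11.9, then 8.94, 10 and 9.19 FPKM.

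**Figure D4:**
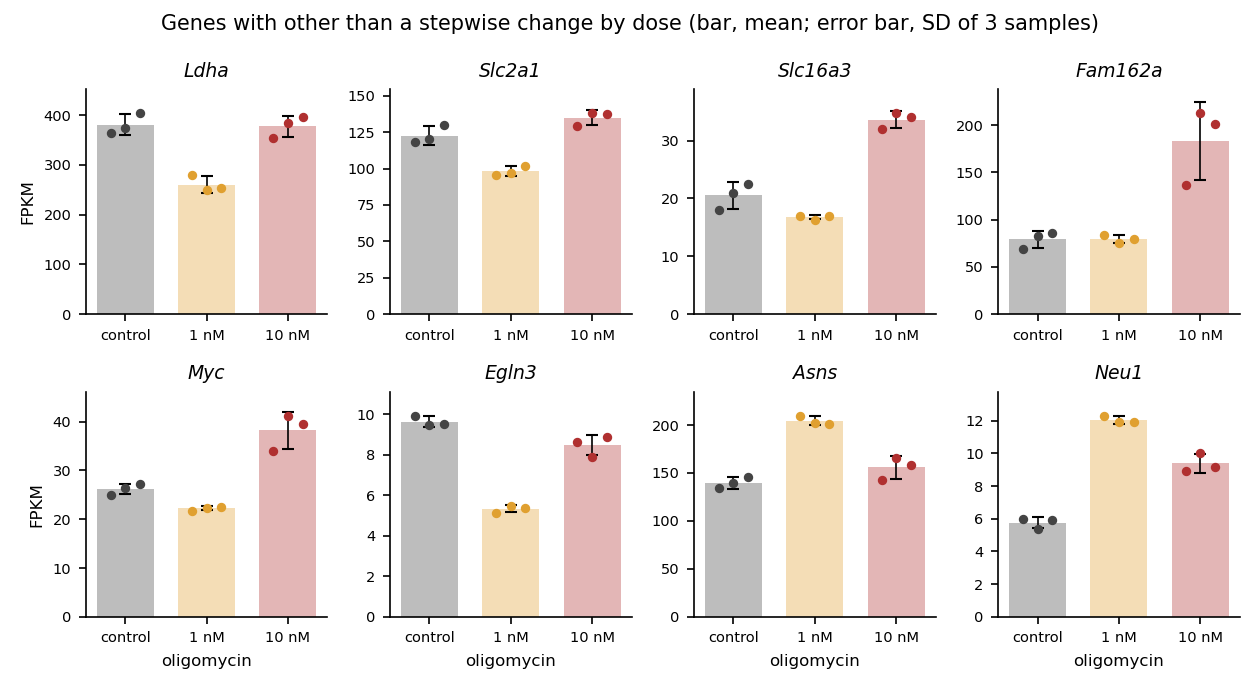
FPKM in each sample of control, 1 nM and 10 nM oligomycin (points; bars are group means from 0, error bars SD, n = 3) for 8 genes whose levels do not step one way with dose. Ldha, Slc2a1, Slc16a3, Myc and Egln3 are lowest at 1 nM, Asns and Neu1 are highest there, and Fam162a is level between control and 1 nM and higher at 10 nM.

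Beyond these groups the largest differences between the doses, among genes with a mean of at least 5 FPKM, were rises of Fam162a, Ptx3 (1.04), Slc16a3 (0.96), Prrx2 (0.93) and the carbonic anhydrase Car6 (0.89). The falls were led by Alpl, the tissue-nonspecific alkaline phosphatase that marks stem cells, with 33.5, 34.5 and 35 FPKM in the controls, 19.2, 20.4 and 22 FPKM at 1 nM and 4.5, 6.01 and 5.77 FPKM at 10 nM. Dppa3 (-1.67), Trh (-1.65), the relaxin gene Rln3 (-1.60) and Dmrt1, a factor of the testis and germ cells (-1.58), followed. The 3 groups of Alpl did not overlap, and the step between the doses was the larger one.

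**Figure D5:**
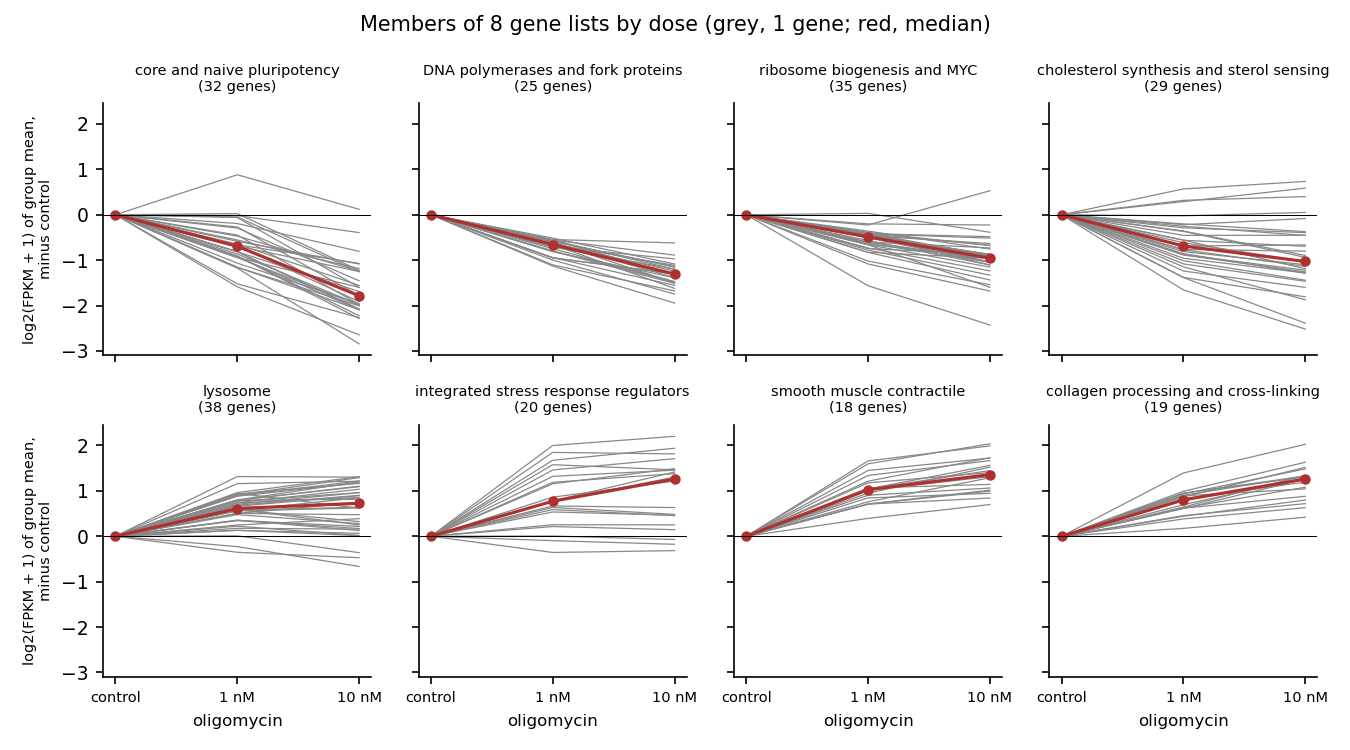
Log2 of the mean FPKM + 1, minus the control value, at control, 1 nM and 10 nM oligomycin. Thin lines are the genes of 8 gene groups, and thick lines are the gene group medians. Pluripotency, fork, ribosome biogenesis and cholesterol genes go down at each step, collagen processing and contractile genes go up, and most stress response genes are nearly level between the doses: their own differences have a median of 0.018, although the median line steps up.

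Cells in 10 mM 2-DG, which received no oligomycin, allow a test that the shared controls do not enter: 10 nM oligomycin against 10 mM 2-DG called 70.8% of genes, 33.2% higher with oligomycin and 37.7% lower. That is 4408 genes higher and 5003 lower, a balance that turned to 4820 and 4623 under median-ratio and 4778 and 4680 under quantile scaling. Pluripotency, contractile, collagen-processing, replication and mitotic genes differed between the inhibitors in nearly all of their members. Pluripotency genes were lower with oligomycin in all 32 of 32 cases (median -1.71): Pou5f1 had 117, 112 and 98.4 FPKM in 2-DG, Nanog 164, 164 and 173 FPKM and Trh 216, 209 and 208 FPKM. All of these lay nearer the controls than the 10 nM oligomycin samples. Pou5f1 overlapped its controls, whereas Nanog lay under and Trh above all of theirs. With 2-DG against control, 15 of the 32 pluripotency genes were higher and 9 lower (median 0.12). Contractile genes were higher with oligomycin in all 18 of 18 (median 1.49), Acta2 having 392, 397 and 383 FPKM in 2-DG, and collagen processing in 18 of 19, Lox having 302, 326 and 321 FPKM. Fork genes were lower in 24 of 25 and mitotic genes in 37 of 37. Ptx3 stood at 35.3, 37.8 and 36.1 FPKM, as high as at 10 nM oligomycin.

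Stress genes were divided between the inhibitors. Endoplasmic reticulum chaperones were lower with oligomycin than with 2-DG in 18 of 24 cases and higher in 0 (median -0.65): Hspa5 had 462, 504 and 508 FPKM in 2-DG. The integrated stress response list was 11 higher and 6 lower of 20. Ddit3 had 30.9, 31.2 and 30.4 FPKM in 2-DG, Trib3 85.7, 82 and 78.7 FPKM and Asns 263, 276 and 274 FPKM. Amino acid synthesis genes were lower with oligomycin in 11 of 17 and tRNA synthetases in 16 of 20, with 0 higher. Cholesterol genes were 7 higher and 14 lower of 29, Hmgcs1 having 18.9, 20.4 and 20.6 FPKM in 2-DG. Glycolysis genes were higher with oligomycin in 17 of 27, HIF targets in 16 of 23, interferon genes in 22 of 25 and chemokines in 20 of 23. With 2-DG against control, 17, 10, 15 and 12 members of these lists were lower and 2, 6, 1 and 6 higher. The differences between the inhibitors thus also hold falls in 2-DG. The macrophage markers moved with the interferon genes and chemokines: 19 of 20 were higher than in 2-DG, where their sum was 482 to 526 FPKM. In 2-DG 13 of these 20 were lower than in the controls and 1 was higher. The part of the macrophage markers in the difference was not tested. Fibroblast markers were higher in 19 of 20 cases, with a sum of 2384 to 2579.5 FPKM in 2-DG. Single genes with the largest differences were Pf4, platelet factor 4 (3.48), the lipase Mgll (2.93), Actg2 (2.90), Lmod1 (2.69) and Loxl3 (2.66) upwards, and Calcoco2 (-4.14), Ifitm1 (-3.94), Trh (-3.81), Dppa3 (-3.15) and Tcl1 (-2.89) downwards. Calcoco2 had 39.7, 39.5 and 41.3 FPKM and Ifitm1 81.9, 80.9 and 80.3 FPKM in 2-DG, both above the controls.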

How the data were processed

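The series sequenced total RNA from mouse embryonic stem cells in 15 samples of 5 groups, 3 samples each. The deposited table gives FPKM per gene, made by the authors; per the submitters' processing notes HISAT2 2.1.0, Bowtie2 2.2.3 and HTSeq 0.6.0 were used with GRCm38, and their roles and the strand setting are not given in the sources used here. Columns were assigned to groups by their names, which are the sample titles, and 26 symbols turned into dates were restored from the Ensembl identifiers. Of FPKM values worth up to 20 reads, 95.4% to 96.1% per library in the compared groups lay within 0.05 of a whole read, which gave the read totals. The deposited FPKM were not rescaled: genes with at least 1 FPKM in 3 of 15 samples were kept, which left out 18868, and log2(FPKM + 1) was fitted in limma 3.58.1 (R 4.3.3) with 1 mean per group over all 15 samples, variance trend, and Benjamini-Hochberg adjustment over 13284 genes at 0.05. The code was tested on simulated data. Named by rule were the 15 largest rises and falls with a mean of at least 5 FPKM and groups that did not overlap, up to 4 called members with the largest changes of each of 72 gene lists, the 5 largest each way in the other comparisons, and a short list of fixed genes; further list members were named after their values were seen. Values of some genes named by this rule are not reported here. The genes and lists were chosen with earlier results of these data known. Gene positions are those of the table on GRCm38; 93.0% of genes have the same start and end in GENCODE release M21, from which shared exon length was computed. Promoter windows are from RefSeq on GRCm38.p6. Tried as alternatives were a pseudocount of 0.1, no filter, median-ratio and quantile scaling, removal of an exon length trend, fits of the 6 samples alone, the replicate number as a block, and leaving out each sample.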

Additional observations from a re-analysis of the deposited data

How the results depend on the processing

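The counts of genes called stayed within 1.5 times of those reported in all 3 comparisons under every alternative run. Against control, 10067 genes became 10025 with a pseudocount of 0.1, 11562 without the filter, 10258 with the exon length trend removed, 9477 in a fit of the 6 samples alone, and 9593 to 10095 with 1 sample left out; against 1 nM the last range was 5333 to 6671, and against 2-DG 8922 to 9532. Counts of 2-fold differences moved with the pseudocount: at 0.1 they were 1372 higher and 1843 lower against control, 28 and 380 against 1 nM, and 1111 and 1329 against 2-DG. The 2-fold rises against 1 nM, 9 in number, were 15 under quantile scaling and 7 to 16 with 1 sample left out, the 16 being without replicate 1 at 10 nM. With the replicate block the counts were 10023, 5972 and 9333. Samples of 10 nM and control with the same number had deviations correlated at 0.37, 0.015 and 0.23. Replicates 1 and 3 at 10 nM correlated best with the control of the same number, and replicate 2 with control 3 (0.25). The deviations within a group depend on each other and follow exon length, so this check cannot tell whether the numbers pair the samples. Of 304 genes named by rule, largely picked for their large changes, 299 kept their call in all 13 alternatives. Results of gene lists against control were less stable. Over all lists and alternatives, 150 list medians moved by at least their SD among the 3 treated samples, and 773 did not. Counts of rising members moved beyond 1.5 times, or off 0, in 49 cases and stayed in 874. For falling members these were 12 and 911. Asns lost it without the filter (adjusted p = 0.065) and in the fit of 6 samples (0.12), Slc2a1, Ndufa6 and mt-Nd4 lost it under at least 1 alternative, and Ldha was called lower under quantile scaling (-0.18, adjusted p = 0.0025); the cause was not tested. No gene named by rule changed to a call of the opposite sign, but the balance of rises and falls in all 3 comparisons turned or levelled under median-ratio and quantile scaling, as given with the counts above. The medians of apoptosis and TCA cycle genes, within 0.1 of 0, changed sign under the other scalings (0.024 and 0.042 under median-ratio scaling), as did that of neuroectoderm with a pseudocount of 0.1 (-0.10). Read depth limits genes near 1 FPKM, and 3 samples per group limit the precision of every spread.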

Other observations

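Kinds of transcript differed in how often they changed. Protein-coding genes rose in 36.1% and fell in 42.3% of 11808 cases, beside 34.0% and 41.7% of all genes. Of 185 long intergenic noncoding RNAs 38 (20.5%) rose and 95 (51.4%) fell (median log2 difference -0.34). Of 105 small nucleolar RNAs 4 (3.81%) rose and 44 (41.9%) fell (median -0.71). The share of small nucleolar RNAs that fell was thus near that of all genes, and only the share that rose was lower. Small nucleolar RNAs guide modification of ribosomal RNA, and they lie within introns of host genes, so that reads of guide and host cannot be told apart here. Of 667 processed pseudogenes 110 (16.5%) rose and 265 (39.7%) fell, the latter share again near that of all genes. Reads of these pseudogenes may belong to the parent genes.

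Changes also went with the level in the controls. Among the 2657 genes with the lowest control level 1118 rose and 618 fell, and among the 2657 with the highest, at 22.1 FPKM and above, 678 rose and 1515 fell, with median log2 differences of 0.14 and -0.33. The control samples enter both the level and the difference, so these measures are not independent. Abundant genes outside the lists included Ptma, prothymosin α, with 1624, 1786 and 1778 FPKM in the controls and 546, 665 and 643 FPKM at 10 nM, and Lgals1, galectin 1, with 489, 553 and 579 FPKM and 1291, 1688 and 1628 FPKM; both were named after their values were seen.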
